A study of Mus musculus with 11 samples.

Results

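Cholesterol traffic between the cells of the hippocampus was followed here through 10 genes: Apoe, Clu, Lcat, Abca1, Abcg1, Lrp1, Npc1, Ch25h, Cyp46a1 and Nr1h3. The genes were taken by name, in a list made with earlier results of these data known. All 10 were among the 20259 genes measured. The arrays held mRNA that was bound to tagged ribosomes in astrocytes of adult mice. All of these Ribo-Tag mice carry Aldh1l1-Cre, whose recombinase works in astrocytes and there turns on a ribosomal protein with an epitope tag. Ribosomes were pulled down by the tag from hippocampus, per the sample titles and the paper's methods, with the mRNA they carried. The paper's results section names forebrain astrocytes for the microarray. Pull-downs came from mice kept for 4 weeks on normal chow (fed, n = 4), from mice fasted overnight (n = 3) and from mice kept for 4 weeks on a high-fat, low-carbohydrate ketogenic diet (n = 4). The treatment protocol states a fast of 18 h, and a sample label states 24 h. The labels number the samples of a diet as separate biological samples and give nothing more about the animals, so p-values measure the spread between these arrays.

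Neurons of the adult brain take much of their cholesterol from astrocytes. Astrocytes load cholesterol and phospholipid onto apolipoprotein E through ABC transporters, the particles mature outside the cell, and endocytic receptors take them up. Inside the receiving cell the cholesterol leaves the lysosome through the Niemann-Pick proteins, and the surplus is oxidised to oxysterols, which leave the brain or bind the liver X receptors (LXRs). LXRs in turn switch on the exporters and apolipoprotein E.

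Values are log2 intensities after robust multi-array averaging (RMA), so that a difference of 1 is a doubling of the signal. Odorant receptor genes, few of which any brain cell uses, served as a guide to background. Their 95th percentile lay at 3.97, and 35.1% of all genes had a mean below it. The mean of 9 members was above that level, and only Ch25h was below it. On the leading principal components, fed array 2 and fasted array 2 lay away from the rest, and limma gave them array weights of 0.251 and 0.458, against 1.03 to 1.43 for the other arrays. Differences below come from a limma fit of the 3 diet means to all 11 arrays, with Benjamini-Hochberg adjustment over all genes and a threshold of 0.05.

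On the ketogenic diet the cholesterol exporter Abca1 and the lysosomal cholesterol transporter Npc1 fell against the fed arrays, by 0.60 and 0.38 on the log2 scale. No member passed as higher. That is 2 of the 10 members, where 0.765% of all genes were lower by the same test and 0.884% passed in either direction. The members were chosen with earlier results of these data known, so such shares are no test of an excess among them. At an unadjusted p under 0.05, 5 members were lower (Abca1, Clu, Lrp1, Npc1 and Lcat), beside 6.53% of all genes. The ketogenic arrays lay wholly below the fed arrays for 4 members (Abca1, Clu, Lrp1 and Npc1), as they did for 4.74% of all genes. The median difference of the 10 members was -0.32, against 0.01 over all genes. After the fast no member passed in limma or by the methods' t-test, and 0 had an unadjusted p under 0.05. The share of all genes that passed was 0%, with 976 genes lower and 457 higher at an unadjusted p under 0.05 (4.82% and 2.26%). Both comparisons share the fed arrays.

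**Figure D1:**
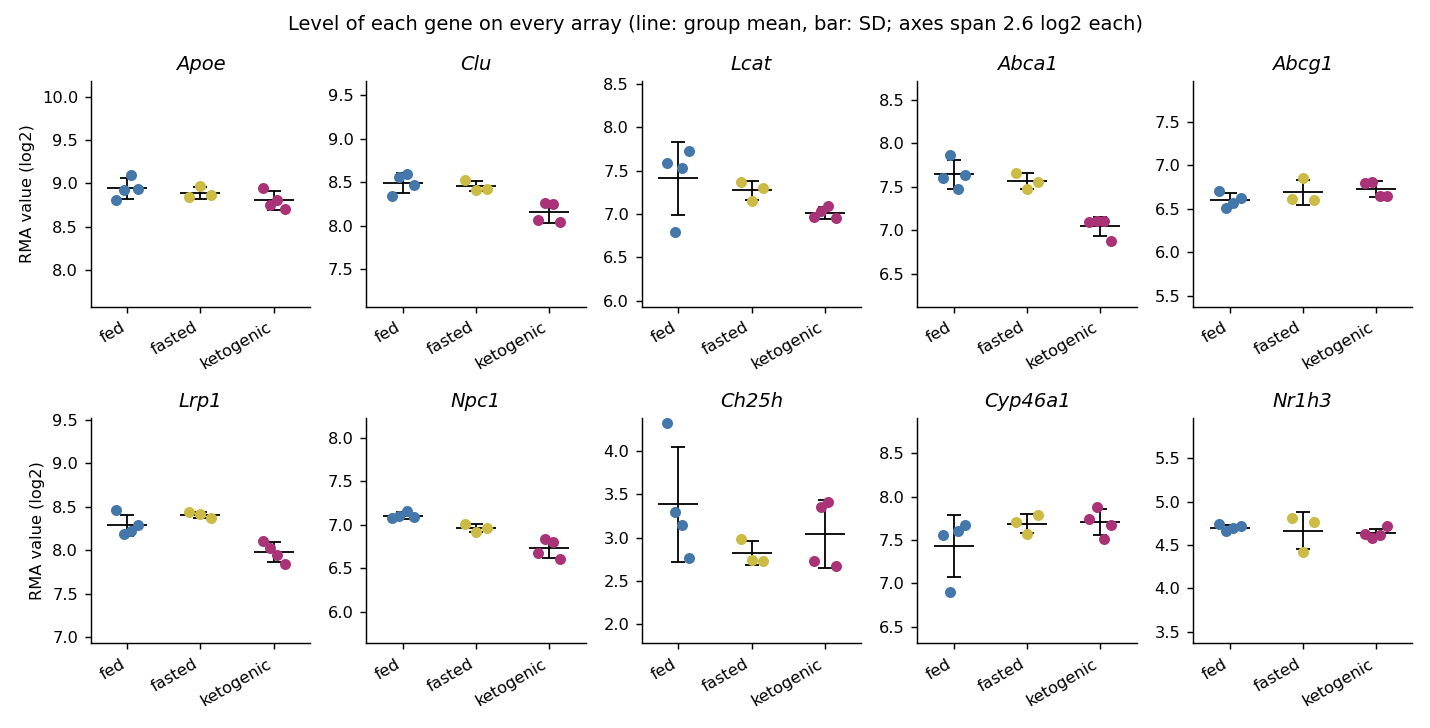
RMA value (log2) of each of the 10 genes on every array, with 1 panel per gene, 1 point per array, a line at the group mean and a bar of 1 SD; the axes span the same range but start at different levels, because levels of different probe sets cannot be set against each other. The ketogenic points of Abca1, Npc1, Clu and Lrp1 lie below all fed points, and the isolated low points of Lcat and Cyp46a1 are fed array 2.

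Abca1 (probe set 7001063) encodes the transporter that moves cholesterol and phospholipid onto lipid-poor apolipoprotein E. It read 7.60, 7.86, 7.47 and 7.64 on fed arrays 1 to 4. The fasted arrays gave 7.67, 7.48 and 7.56, and the ketogenic arrays 7.09, 7.11, 7.10 and 6.88. Every ketogenic array lay below every fed and every fasted array, while fed and fasted arrays overlapped. Against fed, the ketogenic level was 33.9% lower (log2 fold change -0.60, SE 0.10, 95% confidence interval -0.81 to -0.39, adjusted p = 0.0206 from limma). In mRNA pulled from many cells, a smaller share of astrocyte mRNA in the pull-down and less Abca1 mRNA per astrocyte cannot be told apart. The call depended on single arrays: it was lost (adjusted p = 0.0639 to 0.0818 from limma) without fed array 4 or without ketogenic array 1, 2 or 4, and the log2 fold change stayed between -0.65 and -0.52 whichever of the 8 arrays was left out. After the fast the difference was -0.08 (SE 0.10, adjusted p = 0.900 from limma), and its interval ran from -0.30 to 0.15.

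The array has 4 probe sets for Abca1 alone, and 3 of them gave a similar picture. Set 6921670 read 6.40 to 6.65 on the fed and 5.84 to 6.09 on the ketogenic arrays, a difference of means of -0.54. Set 7001061 read 5.56 to 6.18 on the fed and 4.79 to 5.27 on the ketogenic arrays, a difference of -0.68. In both, as in the set used, the diets did not overlap. Set 7001062 scattered widely, with SDs of 1.46 over the fed and 0.90 over the ketogenic arrays, and its difference was 0.41, with fed array 2 at 2.11. With the median over the 4 sets in place of the brightest, the log2 fold change was -0.49 and the adjusted p 0.141 from limma.

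**Figure D2:**
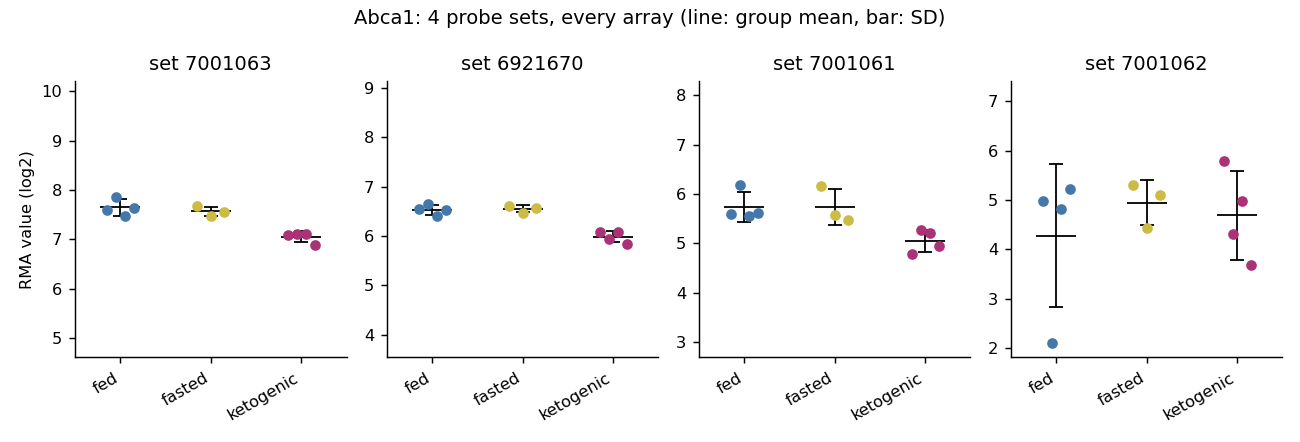
RMA value (log2) of the 4 probe sets of Abca1 on every array, by diet, with a line at the group mean and a bar of 1 SD. In sets 7001063, 6921670 and 7001061 all ketogenic points lie under all fed points, and set 7001062 scatters from 2.11 to 5.22 among the fed arrays.

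The promoter of Abca1 is shown because the gene is the leading change and a known LXR target. LXR binds, with its partner RXR, to copies of AGGTCA set 4 letters apart (a DR4), and the human gene is known to carry such an element close to its start. Below are the 250 bases before the RefSeq start of mouse Abca1 on the minus strand of chr4:53159896-53160145 (GRCm38.p6), in gene direction, with both stretches read as AGGTCA by the closest match in capitals.
Abca1: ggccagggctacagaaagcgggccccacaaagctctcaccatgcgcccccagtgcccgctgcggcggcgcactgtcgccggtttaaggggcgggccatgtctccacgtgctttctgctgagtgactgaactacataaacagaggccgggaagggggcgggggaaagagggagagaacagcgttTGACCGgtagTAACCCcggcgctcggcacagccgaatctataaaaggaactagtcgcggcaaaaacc
The match lies 67 to 52 bases before the start, on the strand opposite to the gene, and differs from the repeat at 3 of its 12 fixed letters. Windows of this kind, 10 in all, were read for 7 members (all but Abcg1, Clu and Npc1). With up to 3 mismatches, on either strand, 3 of these members held a match, in 1 window each. In the same layout the matches were, for Abca1 and for the members Lcat and Cyp46a1:
Abca1: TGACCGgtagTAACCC
Lcat: AGGCCAgcccAGGACT
Cyp46a1: AGCTCAagagAGGGTA
The Lcat and Cyp46a1 matches read in the direction of the gene and lie 22 to 7 and 212 to 197 bases before the start. Such a match was found in 18.5% of all 32851 promoter windows of this length, so it sets none of these genes apart, and binding of a factor was not measured.

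Abcg1 (probe set 6849766), a transporter that adds cholesterol to particles already formed and is also switched on by LXR, did not pass in any comparison. It read 6.70, 6.51, 6.57 and 6.62 on the fed arrays. On the fasted arrays it read 6.61, 6.85 and 6.60, and the ketogenic arrays 6.80, 6.81, 6.65 and 6.64. All 3 diets overlapped. The differences from fed were 0.12 on the ketogenic diet (interval -0.06 to 0.31, adjusted p = 0.545 from limma) and 0.09 after the fast (interval -0.11 to 0.28, adjusted p = 0.871 from limma).

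Npc1 (probe set 6863434) encodes the membrane protein that hands cholesterol out of late endosomes and lysosomes. It read 7.08, 7.10, 7.16 and 7.08 on the fed arrays, the narrowest fed range but that of Nr1h3. Fasted values were 7.01, 6.91 and 6.97, and the ketogenic arrays 6.68, 6.84, 6.80 and 6.60. The 3 diets did not overlap: fed was highest, fasted between and ketogenic lowest. Against fed, the ketogenic level was 23.0% lower (log2 fold change -0.38, SE 0.07, interval -0.53 to -0.22, adjusted p = 0.0371 from limma). The call was lost whichever of the 8 arrays was left out (adjusted p = 0.0520 to 0.129 from limma), with values between -0.41 and -0.33. After the fast the difference was -0.14 (interval -0.31 to 0.02, adjusted p = 0.734 from limma). Npc1 was the only member whose fasted arrays all lay below the fed arrays, as they did for 4.27% of all genes.

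Lrp1 (probe set 6777957), a large endocytic receptor that takes up particles bearing apolipoprotein E, was at its lowest on the ketogenic diet but did not pass the test. It read 8.46, 8.18, 8.22 and 8.29 on the fed arrays. After the fast it read 8.44, 8.42 and 8.37, and the ketogenic arrays 8.11, 8.03, 7.94 and 7.84. All ketogenic arrays were below all others, and fed and fasted arrays overlapped. The ketogenic difference from fed was -0.31 (SE 0.08, adjusted p = 0.122 from limma). Groups of 4 that do not overlap have the smallest p that the exact two-sided permutation test allows (0.0286), so that test adds nothing to the absence of overlap. The fasted difference from fed was 0.12 (interval -0.07 to 0.32, adjusted p = 0.809 from limma).

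Among the particle proteins, Clu, Lcat and Apoe had negative differences on the ketogenic diet, and none passed. Clu (probe set 6819887), or clusterin, is the apolipoprotein J that astrocytes secrete beside apolipoprotein E. It read 8.34, 8.56, 8.60 and 8.47 on the fed arrays. The fasted arrays gave 8.52, 8.42 and 8.43, and the ketogenic arrays 8.06, 8.26, 8.25 and 8.04. All ketogenic arrays lay below all fed and fasted arrays. The difference from fed was -0.34 (SE 0.08, adjusted p = 0.101 from limma). The fasted difference was -0.04 (interval -0.23 to 0.16).

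Apoe (probe set 6973587), the main apolipoprotein of brain particles, overlapped between all diets. Its values were 8.81, 8.93, 9.10 and 8.94 on the fed arrays. On the fasted arrays it read 8.84, 8.96 and 8.86, and the ketogenic arrays 8.95, 8.75, 8.81 and 8.70. The ketogenic and fasted differences from fed were -0.14 (interval -0.32 to 0.04, adjusted p = 0.490 from limma) and -0.05 (interval -0.25 to 0.14, adjusted p = 0.920 from limma).

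Lcat (probe set 6985005) esterifies the cholesterol of secreted particles, with apolipoprotein E as an activator in the brain. It read 7.59, 6.79, 7.53 and 7.73 on the fed arrays, so that fed array 2 was below every other array. Fasted values were 7.37, 7.15 and 7.30, and the ketogenic arrays 6.97, 7.04, 7.09 and 6.95. Apart from fed array 2, fed arrays were highest, fasted arrays between and ketogenic arrays lowest, with no overlap. Over all arrays the ketogenic difference from fed was -0.40 (SE 0.17, adjusted p = 0.330 from limma). Without fed array 2 it was -0.60 and passed (adjusted p = 0.0253 from limma), and with array weights, which count that array less, it was -0.55 and passed as well (adjusted p = 0.0274 from limma). The fasted difference was -0.14 (adjusted p = 0.900 from limma) over all arrays and reached -0.34 (adjusted p = 0.348 from limma) when fed array 2 was left out.

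**Figure D3:**
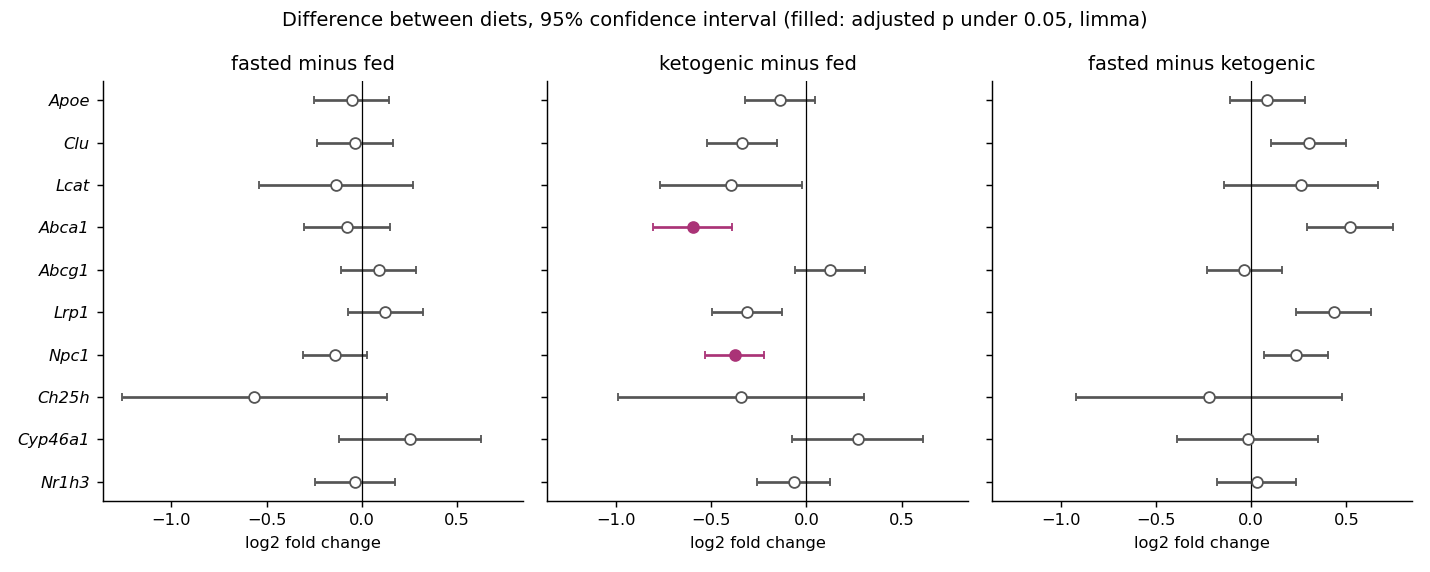
Log2 fold change of each gene in the 3 comparisons between diets, with 95% confidence intervals from the limma fit; filled points have an adjusted p under 0.05. Filled points are Abca1 (-0.60) and Npc1 (-0.38) in ketogenic minus fed, and there are none in the comparisons with the fasted arrays.

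The oxysterol enzymes did not pass in any comparison. Ch25h (probe set 6872781), the cholesterol 25-hydroxylase that macrophages and microglia induce in inflammation, was above the odorant receptor level on 1 of the 11 arrays, fed array 1 (4.32). The other fed arrays read 3.30, 3.15 and 2.76. After the fast it read 2.98, 2.75 and 2.73, and the ketogenic arrays 2.73, 3.35, 3.41 and 2.67. All but that of fed array 1 are background readings, and the intervals of the differences of -0.56 after the fast (-1.26 to 0.13) and -0.34 on the ketogenic diet (-0.99 to 0.30) include 0. Without fed array 1 the ketogenic difference was -0.03, and the fasted difference -0.25.

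Cyp46a1 (probe set 6797893) makes 24S-hydroxycholesterol, the main form in which cholesterol leaves the brain, and in healthy brain is an enzyme of neurons. It read 7.56, 6.91, 7.61 and 7.67 on the fed arrays. The fasted arrays gave 7.71, 7.57 and 7.79, and the ketogenic arrays 7.75, 7.88, 7.52 and 7.67. Fed array 2 was again the lowest of all, and the others overlapped between diets. The differences from fed were 0.27 on the ketogenic diet (adjusted p = 0.477 from limma) and 0.25 after the fast (adjusted p = 0.790 from limma), and 0.09 and 0.08 without fed array 2. The mean of the neuron markers was also higher, with 7.88 ± 0.04 (SD, n = 4) on the fed, 7.98 ± 0.11 (n = 3) on the fasted and 8.01 ± 0.02 (n = 4) on the ketogenic arrays. Relative to that mean, the differences of Cyp46a1 were 0.13 on the ketogenic diet (adjusted p = 0.643 from limma) and 0.15 after the fast (adjusted p = 0.682 from limma). This subtraction shifts every gene, and the median of all genes was then -0.12 in both comparisons. Past the threshold were 448 genes on the ketogenic diet and 0 after the fast.

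Nr1h3 (probe set 6888752) encodes LXR alpha, the oxysterol receptor that also drives its own gene in some cells. Its values were 4.74, 4.66, 4.69 and 4.71 on the fed arrays. On the fasted arrays it read 4.81, 4.42 and 4.76, and the ketogenic arrays 4.62, 4.59, 4.61 and 4.71. All fed and ketogenic values lay within the range of the fasted ones. The differences were -0.07 on the ketogenic diet (interval -0.26 to 0.13, adjusted p = 0.792 from limma) and -0.04 after the fast (interval -0.24 to 0.17, adjusted p = 0.955 from limma).

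Set against each other, the fasted and ketogenic arrays differed most in Abca1 and Lrp1, which had a log2 fold change of 0.52 (SE 0.10, adjusted p = 0.0806 from limma) and 0.43 (SE 0.09, adjusted p = 0.0826 from limma) in favour of the fasted arrays. No member passed in limma or by the methods' t-test, where 0.281% of all genes passed in limma, and 4 members (Abca1, Lrp1, Clu and Npc1) were higher at an unadjusted p under 0.05, beside 4.19% of all genes. The fasted arrays lay wholly above the ketogenic arrays for 5 members, namely Abca1, Lrp1, Clu (0.30), Lcat (0.26) and Npc1 (0.23), beside 4.78% of all genes. With array weights, Abca1 and Lrp1 passed, and Abca1 also passed without fed array 2 and fasted array 2 and when dim genes were left out of the adjustment. More of all genes passed too with array weights and without dim genes, as given in the section on processing. Apoe (0.09), Abcg1 (-0.04), Cyp46a1 (-0.02) and Nr1h3 (0.03) were near 0.

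The markers of the pulled-down cell type were lower on the ketogenic arrays too. All 19 astrocyte markers measured had negative differences from fed, 8 passed, and their median was -0.43, which was more negative than the median of the members. Their mean per array was 7.98 to 8.09 on the fed and 7.90 to 8.08 on the fasted arrays, and 7.46 to 7.70 on the ketogenic arrays. The 17 neuron markers had a median of 0.16, with 13 positive, and the 13 microglia markers a median of 0.15. The 11 oligodendrocyte markers had a median of -0.30, with 10 negative, and none passed. After the fast their median was -0.32, again with 10 negative, 7 at an unadjusted p under 0.05 and none past the threshold, and their mean per array was 7.20 to 7.61, against 7.69 to 7.95 on the fed arrays. The part of these cells in the members' values was not tested. On the ketogenic diet the 12 markers of endothelial and mural cells had a median of -0.42, with 10 negative, and 2 passed as lower. The 12 of choroid plexus, ependyma and meninges had a median of -0.10. All markers of the first 4 cell types were above the odorant receptor level, so the pull-downs held RNA of other cells beside that of astrocytes.

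When the mean of the 19 astrocyte markers was subtracted on each array, Abca1 and Npc1 no longer differed from fed past the threshold. The ketogenic difference of Abca1 was then -0.10 (interval -0.33 to 0.13, adjusted p = 0.359 from limma), and that of Npc1 0.12 (interval -0.06 to 0.30, adjusted p = 0.203 from limma). Lrp1 (0.18), Clu (0.16) and Lcat (0.10) were also short of the threshold. Apoe (0.35, adjusted p = 0.0104 from limma) and Abcg1 (0.62, adjusted p = 0.00110 from limma) were higher relative to the markers, as were Nr1h3 (0.43) and Cyp46a1 (0.76). Subtracting the markers shifts every gene, and the median of all genes was then 0.51, with 16941 of 20259 past the threshold. Against that median, Abca1, Npc1, Lrp1, Clu, Lcat, Ch25h, Apoe and Nr1h3 lay lower and Abcg1 and Cyp46a1 higher. Relative to the markers no member passed after the fast, where the median of all genes was 0.02.

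**Figure D4:**
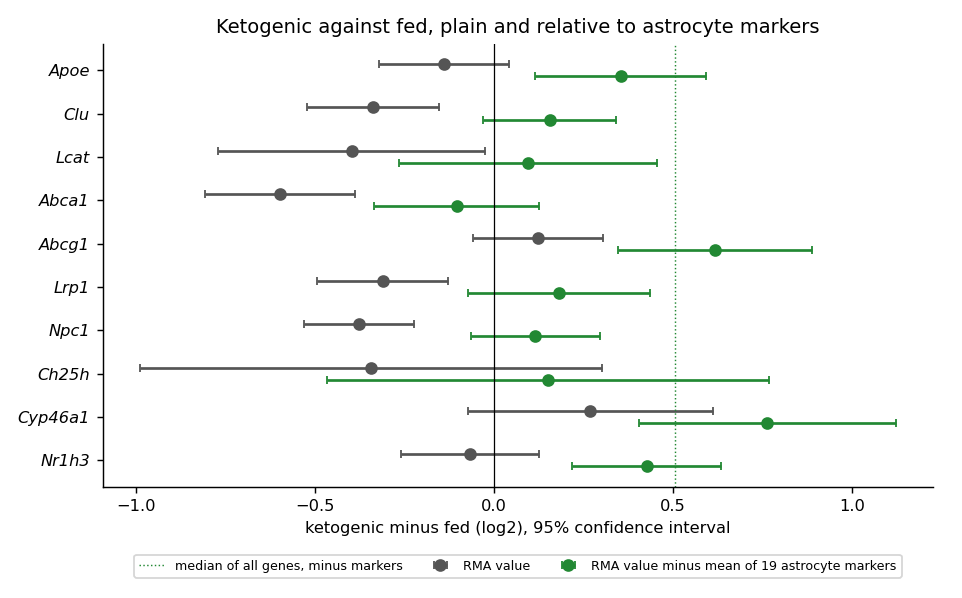
Ketogenic minus fed difference (log2, with 95% confidence interval) of each gene, as RMA value (grey) and after subtraction of the mean of 19 astrocyte markers on each array (green); the dotted line is the median of all genes after that subtraction, 0.51. The intervals of Abca1 (-0.10), Npc1 (0.12), Lrp1, Clu and Lcat then include 0 and lie left of the dotted line, and Abcg1 (0.62) and Cyp46a1 (0.76) lie to its right.

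Outside the 10 members, 79 further genes of the pathway were measured, in 6 groups by role. On the ketogenic diet 1 of them passed, Lrp4, which was lower, beside 0.884% of all genes, a share near that of the 79. Their median was 0.04, with 48 positive and 31 negative, against 0.01 over all genes. At an unadjusted p under 0.05, 9 of the 79 were higher and 7 lower, beside 1497 and 1323 of all 20259 genes. Lrp4 is a receptor of the same family as Lrp1, best known as the agrin receptor of the neuromuscular junction. It read 7.25, 7.41, 7.29 and 7.13 on the fed arrays. Fasted values were 7.15, 6.94 and 7.25, and the ketogenic arrays 6.75, 6.70, 6.79 and 6.55. All ketogenic arrays were below all others. The log2 fold change was -0.57 (SE 0.09, adjusted p = 0.0221 from limma), and the call was lost when fed array 1 or 3, or ketogenic array 1, 2 or 4, was left out. Relative to the astrocyte markers it was -0.08 (adjusted p = 0.445 from limma). The other 13 receptors and regulators measured were 12 positive and 1 negative.

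Of the 11 other exporters, none passed on the ketogenic diet, and their median was -0.02. The lowest was Abca8a, a transporter of the ABCA family, with a log2 fold change of -0.49 (adjusted p = 0.0511 from limma), but taking the median of its probe sets gave -0.23 (adjusted p = 0.514 from limma). It passed with array weights, without dim genes and with trend and robust moderation. Abcg4, a close relative of Abcg1 in the brain, had 0.33 (adjusted p = 0.326 from limma), which was 0.16 without fed array 2. Abca8a was also negative after the fast (-0.44, adjusted p = 0.420 from limma, and -0.14 with that median). Both comparisons rest on the same fed arrays, where Abca8a read 4.50 to 4.89, against 4.08 to 4.42 on the fasted and 4.14 to 4.32 on the ketogenic arrays.

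The 14 other apolipoproteins and remodelling proteins had a median of -0.04 on the ketogenic diet. The pair with the lowest p were Lpcat3, which remodels phospholipids and is an LXR target (-0.30, adjusted p = 0.114 from limma), and Apoa4 (0.27, adjusted p = 0.126 from limma). The 9 other enzymes of the oxysterol and bile acid routes had a median of -0.05, led by Hsd3b7 (-0.25) and the sulfotransferase Sult2b1 (0.29). The 6 sensors and partners had a median of 0.08, led by the retinoid X receptor Rxrg (0.32) and by Gpr183, the receptor for oxysterols made from the product of Ch25h (0.44). The 25 genes of intracellular movement and esters had a median of 0.07, led by Osbpl1a (-0.24) and the sterol carrier Scp2 (-0.34). None of these passed.

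After the fast none of the 79 passed in limma, where 2 were higher and 4 lower at an unadjusted p under 0.05, beside 2.26% and 4.82% of all genes, and their median was 0.01. The values with the lowest p in each group were Apoa4 (0.30) and Apod (0.24) among apolipoproteins, Abca8a and Abcg4 (0.21, but 0.04 without fed array 2) among exporters, Lrp4 (-0.16) and Vldlr (0.14) among receptors, and Cyp39a1 (-0.26) and Hsd3b7 (-0.19) among enzymes. Gpr183 (0.40) and Rxra (0.17) led the sensors, and Osbpl1a (-0.22) and the sterol transporter Stard4 (-0.57) the intracellular genes. Between fasted and ketogenic arrays none passed either, with 6 higher and 4 lower at that unadjusted p, beside 4.19% and 6.43% of all genes, and the median was -0.03. There the leading values were Apoc3 (0.52) and Lpcat3 (0.29), Scarb1 and Abcg8 (both -0.14), and Lrp4 (0.41) and Lrp5 (0.30). For enzymes, sensors and intracellular genes they were Sult2b1 (-0.21) and Cyp7a1 (-0.15), Rxrg (-0.34) and Ncoa1 (0.05), and Tspo (0.43) and Scp2 (0.28). Of the genes named here, Cyp39a1, Cyp7a1 and Abcg8 lay below the odorant receptor level on every array. Their differences are between background readings.

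**Figure D5:**
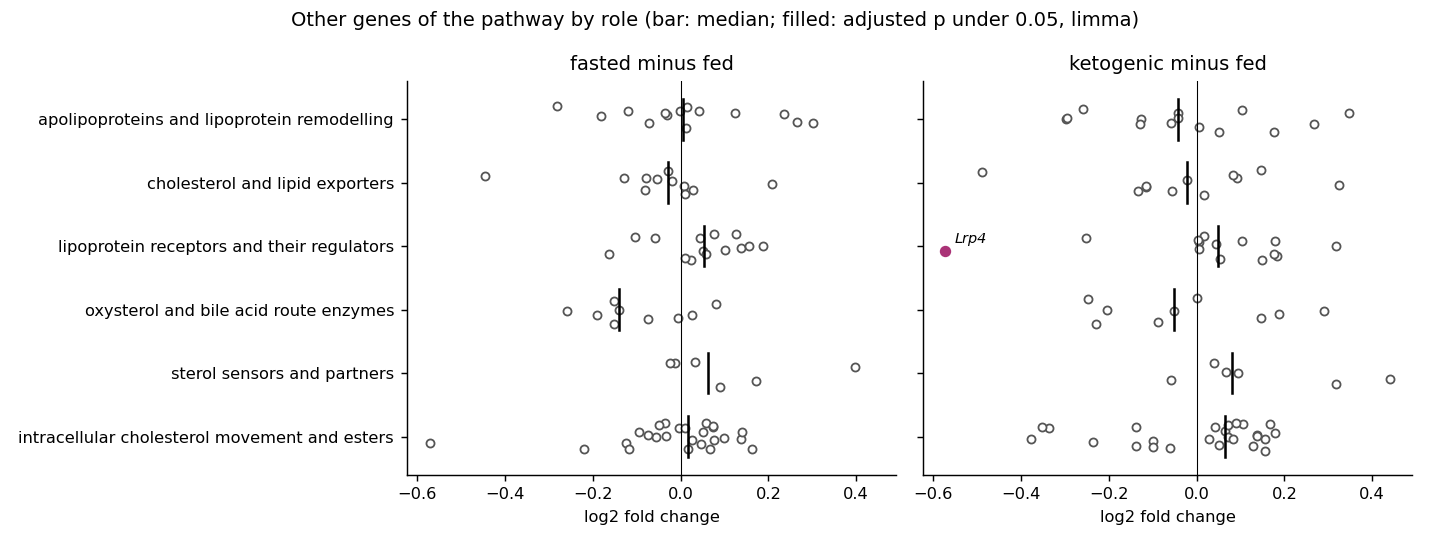
Log2 fold change of the 79 further pathway genes by role, for fasted minus fed and ketogenic minus fed, with 1 point per gene, a bar at the median of each role and filled points for an adjusted p under 0.05. Lrp4 (-0.57) is the filled point, and the medians of all 6 roles lie between -0.14 and 0.08.

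The LXR targets were also read as a list, because Abca1, Abcg1, Apoe and Nr1h3 are among them. This list too was chosen with earlier results of these data known. Of 14 measured, 3 fell on the ketogenic diet (Abca1, Smpdl3a and Srebf1), and the list's median was -0.14, beside 0.765% of all genes lower and a median of 0.01. In sign, 9 of the list were negative and 5 positive, with Abcg4 the highest (0.33, not past the threshold). The astrocyte markers moved with them, as given above (19 of 19 negative, median -0.43). Smpdl3a, a phosphodiesterase known as an LXR target from human macrophages, read 7.76, 8.02, 7.88 and 7.98 on the fed arrays. After the fast it read 7.72, 7.68 and 7.60, and the ketogenic arrays 7.14, 7.18, 7.57 and 7.18. Its ketogenic arrays lay below all others, and the log2 fold change was -0.65 (SE 0.10, adjusted p = 0.0206 from limma). Srebf1, the transcription factor of fatty acid synthesis, read 6.54 to 6.69 on the fed, 6.52 to 6.67 on the fasted and 6.07 to 6.35 on the ketogenic arrays (log2 fold change -0.42, SE 0.08, adjusted p = 0.0361 from limma). Leaving out 1 array ended the call of Smpdl3a in 5 of 8 fits (those omitting fed array 3 or 4, or ketogenic array 1, 2 or 4) and that of Srebf1 in 7 of 8 (all but that without ketogenic array 3). Relative to the astrocyte markers their differences were -0.15 (adjusted p = 0.144 from limma) and 0.08 (adjusted p = 0.453 from limma), where the median of all genes was 0.51, a fit added after seeing the data. The other LXR targets among the members, Abcg1 (0.12), Apoe (-0.14) and Nr1h3 (-0.07), did not pass. After the fast none of the list passed, with Smpdl3a at -0.24 and Mlxipl at 0.14 as its lowest p, and against the ketogenic arrays the fasted values of Smpdl3a (0.40) and Srebf1 (0.38) did not pass either.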

How the data were processed

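Ribosome-bound mRNA of 11 pull-downs was amplified with a NuGEN Pico kit and read, with a biotin label, on Affymetrix mouse exon arrays, 1 per sample. Per the labels, the authors used RMA in Partek (build mm9), and the deposited table holds log2 values per probe set, already background-corrected and normalized. The log base is not given in the sources used here and was read as the log2 that RMA gives (values 0.856 to 13.6). RMA brings all arrays to a common distribution, which would hide a change shared by most genes.

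Of 115830 probe sets, the annotation gave 25539 a gene symbol of their own and 2300 several symbols, and 87991 were unnamed here. A gene took the set paired with it alone that had the highest mean over the arrays, and levels of different sets were not compared. Groups come from the titles. Means of 3 groups were fitted in limma 3.58.1 (R 4.3.3), two-sided, and the fit was tested on simulated data. The replicate number was not used as a block. Alternatives covered array scaling and weights, the probe set, dim genes, the samples, the test, moderation and left-out arrays. Precision is limited by the number of arrays.

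All members are named. Of each role list and of the LXR targets the genes that passed are named, or otherwise the 2 with the lowest p in a comparison. Marker lists are given by count and median. The members and lists were chosen with earlier results of these data known. Listed genes with no set of their own (Apoa1 and Nr1h2 among them) were not analysed here. Promoters are RefSeq windows of GRCm38.p6.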

Additional observations from a re-analysis of the deposited data

Results flagged for a closer look

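In 7 of the 84 gene and diet groups of 4 arrays checked, 1 array lay far from the other 3, and chance alone flags about 1 in 20. Ketogenic array 4 was low for Abca1 (6.88, the others 7.09 to 7.11) and for Stard4 (4.47, the others 4.79 to 4.86), and without it the ketogenic difference of Abca1 was -0.54 (adjusted p = 0.0818 from limma). Ketogenic array 3 was high for Smpdl3a (7.57, the others 7.14 to 7.18). Fed array 2, which has the lowest array weight, was low for Cyp46a1 (6.91, the others 7.56 to 7.67), Abcg4 (6.37, the highest of the others 7.06) and Abcg8 (3.21, the others 3.46 to 3.50). Abcg8 is below the odorant receptor level. Fed array 4 was high in the mean of the choroid plexus, ependymal and meningeal markers (5.68, the others 5.27 to 5.28). The causes were not tested.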

How the results depend on the processing

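Of 487 alternative values of members, 442 kept direction and side of the threshold, 20 lost it, 7 gained it and 18 changed sign, none of these past it (adjusted p of 0.875 or more from limma). Most of the 487 had no call to lose. All 20 losses were those of Abca1 and Npc1 between ketogenic and fed arrays. There Abca1 passed in 4 of 8 fits without 1 array and in 5 of 9 other fits. Npc1 passed in 0 of 8 and in 5 of 9. Lcat, not called in the fit reported, passed in 1 of 8 and in 2 of 9, among them the fit with array weights. Centring each array on its median left the totals of calls within 1.5 times, but over all genes raised the higher calls between ketogenic and fed arrays from 24 to 41. Members called between ketogenic and fed arrays were 2 in the fit reported, 1 with the median over probe sets, 0 with only the 2 groups, with the methods' t-test and with the replicate block, and 0 to 2 without 1 array. Between fasted and ketogenic arrays they were 0, but 2 with array weights, 1 without dim genes and 1 without fed array 2 and fasted array 2. Of the 79 pathway genes, 1 passed between ketogenic and fed arrays, but 2 with array weights, without dim genes and with trend and robust moderation, 0 with the t-test and the block, and 0 to 1 without 1 array. Between fasted and ketogenic arrays 0 passed, but 1 with array weights. Over all genes, ketogenic against fed gave 179 calls, with 387 under array weights, 284 without dim genes, 79 with only the 2 groups, 12 with the t-test, 1 with the block and 1 to 170 without 1 array. Fasted against ketogenic gave 57, with 188, 88, 34, 6, 6 and 8 to 61 in the same order. Fasted against fed gave 0, with 1 without the 2 arrays named above and 0 to 1 without 1 array. The labels do not pair the samples by replicate number. Arrays of the same number had correlations of deviations of -0.12 to 0.18, all positive between fed and fasted arrays. Arrays of different numbers were not compared, so a shared batch was not tested.

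Signs of small values turned as follows. Fasted minus fed was 0.0068 for Clu, 0.042 for Abca1, -0.026 for Abcg1 and 0.073 for Nr1h3 without the 2 arrays, 0.0045 for Abca1 and 0.019 for Nr1h3 with array weights, and 0.0097 for Abca1 with the median over sets. Leaving out 1 array gave -0.087 to 0.0012 for Clu and -0.11 to 0.087 for Nr1h3. Fasted minus ketogenic for Cyp46a1 was 0.017 with array weights, 0.017 with the replicate block and 0.043 without the 2 arrays. Leaving out 1 array gave -0.079 to 0.043 for Cyp46a1, -0.12 to 0.0081 for Abcg1 and -0.044 to 0.15 for Nr1h3. Smpdl3a and Srebf1 lost their calls with only the 2 groups (adjusted p = 0.0519 and 0.0709 from limma), with the t-test (0.124 and 0.104) and with the block (0.0815 and 0.111), among alternatives added for them after seeing the data. Ch25h has no value without dim genes. The causes were not tested.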
